A study of Rattus norvegicus with 9 samples.

Results

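miR-1 and miR-206 form a small muscle family of microRNAs (miRNAs), defined here as the annotated sequences filed under a rat entry named mir-1 or mir-206, whatever their type of match. The family held 317 of the 46358 unique annotated sequences, 316 of them under mir-1 and 1 under mir-206. They were backed by 31594 of 7631327 annotated reads. miRNAs guide repression of messenger RNAs through the seed, a short stretch near their 5′ end. miR-1 is made in cardiac and skeletal muscle and restrains the growth of muscle precursors, and its genes lie beside those of miR-133, whose transcripts they share. miR-206 has the same seed and is known chiefly from skeletal muscle.

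The samples came from 3 male Sprague-Dawley rats aged 8 months, numbered hearts 6, 7 and 8. The left ventricular free wall of each heart was separated into epicardium, mid-myocardium and endocardium, the outer, middle and inner layers. There was 1 small RNA library per layer of each heart, with no treatment. Each layer is a piece of tissue holding several cell types, so fewer muscle cells and less RNA per muscle cell cannot be told apart. Annotated reads ran from 283991 (mid-myocardium, heart 6) to 1428025 (endocardium, heart 7), and levels are given in reads per 1000000 annotated reads of the library (RPM).

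RefSeq lists 3 rat mature miRNAs with the seed GGAAUGU among the 693 mature entries of its table, on the assembly GRCr8. They are shown because every result turns on the bases at which they differ, and capitals mark the seed (nts 2 to 8).
rno-miR-1-3p: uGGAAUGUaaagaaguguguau
rno-miR-1b: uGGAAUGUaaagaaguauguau
rno-miR-206-3p: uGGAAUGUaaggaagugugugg
rno-miR-1-3p lies in Mir1 at chr18:2160339-2160360 (minus strand), with Mir133a1 as its neighbour. rno-miR-1b lies in Mir1b at chr3:187864736-187864757 (plus strand), and rno-miR-206-3p lies in Mir206 at chr9:30590747-30590768 (plus strand), beside Mir133b. Position 1 is the 5′-most base of each mature sequence. Against rno-miR-1-3p, the entry to which the study filed its rat reads, rno-miR-1b carries G17A and rno-miR-206-3p carries A11G, A21G and T22G.

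The 10 sequences that each held at least 1% of the miR-1 reads together made up 92.5% of them. They are shown to set the 2 forms at nt 17 and their 3′ ends side by side, with capitals at bases that differ from or extend past the rat entry.
A17, 22 nts: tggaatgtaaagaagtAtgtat
G17, 22 nts, the canonical rat sequence: tggaatgtaaagaagtgtgtat
A17, 21 nts: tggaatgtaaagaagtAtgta
A17, 20 nts: tggaatgtaaagaagtAtgt
A17 with T22C: tggaatgtaaagaagtAtgtaC
A17, 23 nts: tggaatgtaaagaagtAtgtatT
A17 with T22A: tggaatgtaaagaagtAtgtaA
G17, 21 nts: tggaatgtaaagaagtgtgta
G17, 20 nts: tggaatgtaaagaagtgtgt
G17 with T22C: tggaatgtaaagaagtgtgtaC
The A17 sequence of 22 nts, identical to rno-miR-1b, made up 56.0% ± 2.31 (SD, n = 9) of the miR-1 reads. The canonical rat sequence made up 15.7% ± 1.14. The 21-nt and 20-nt A17 sequences followed with 6.18% ± 1.23 and 3.15% ± 0.761. The least frequent of the 10, G17 with T22C, held 1.28% ± 0.332. Of the 317 members, 150 had a single read over all libraries, 55 had at least 10 reads, and 26 were found in all 9 libraries.

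miR-1 was present in every layer at similar levels, and the layers overlapped. In epicardium it was measured at 3833, 4813 and 3287 RPM in hearts 6, 7 and 8, a mean of 3977 ± 774 (SD, n = 3). Mid-myocardium gave 4377, 4121 and 5851 RPM, a mean of 4783 ± 934. Endocardium gave 2664, 3517 and 4944 RPM, a mean of 3708 ± 1152. The highest and the lowest library, 5851 and 2664 RPM, differed by 2.20 times. The order of the layers was not the same in any 2 hearts. It was mid-myocardium, epicardium, endocardium in heart 6. In heart 7 epicardium was highest and endocardium lowest, and in heart 8 mid-myocardium was highest and epicardium lowest.

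**Figure D1:**
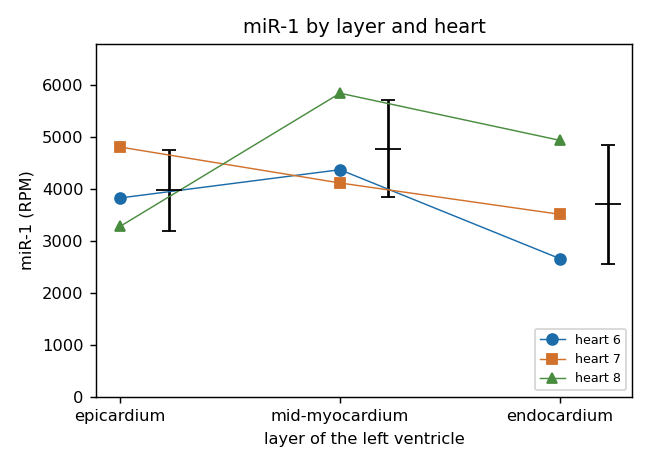
Level of miR-1 in RPM (y axis, from 0) in the 3 layers (x axis), with a line and symbol for each heart and bars for the mean ± SD of the 3 hearts. The lines cross, and the layer means of 3977, 4783 and 3708 RPM lie within the spread of single libraries.

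No layer difference of miR-1 passed the test, which was limma on log2(RPM + 1) with Benjamini-Hochberg adjustment over all miRNAs tested. Endocardium against epicardium gave a log2 difference of -0.13 (SE 0.35, adjusted p = 0.997), a fold of 0.914 with a 95% interval of 0.524 to 1.59. In that comparison miR-1 was the only member with enough reads to be tested and was not called, where 0% of 378 miRNAs were called. Mid-myocardium against epicardium gave 0.27 (SE 0.29, adjusted p = 0.958), a fold of 1.20 (0.751 to 1.93), with 0% of 373 miRNAs called. Mid-myocardium against endocardium gave 0.40 (SE 0.32, adjusted p = 0.824), a fold of 1.32 (0.780 to 2.22), with 0% of 379 called. These intervals reached down to 0.524, 0.751 and 0.780 and up to 1.59, 1.93 and 2.22. With 3 hearts a difference of such size in either direction could not be told from none. At an unadjusted p under 0.05 limma called 12, 10 and 12 miRNAs in these comparisons (3.17%, 2.68% and 3.17%), miR-1 not among them, and edgeR called 0 in each after adjustment. DESeq2 called 0, 1 and 0, and the 1 was miR-10b, named here because its value was seen. Leaving out epicardium of heart 7 turned the endocardium against epicardium difference to 0.02, and leaving out endocardium of heart 6 turned it to 0.09.

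Single miR-1 sequences gave the same picture. The 6 sequences with a mean of at least 100 RPM in 1 layer or more were tested among 562, 559 and 562 unique sequences. limma called 0 of the 6 after adjustment in each comparison, where 0% of all sequences were called, with 8, 15 and 17 of all sequences (1.42%, 2.68% and 3.02%) at an unadjusted p under 0.05. The A17 sequence of 22 nts was measured at 2206, 2612 and 1743 RPM in epicardium. It stood at 2634, 2338 and 3296 RPM in mid-myocardium and at 1489, 1874 and 2845 RPM in endocardium. Its log2 difference between mid-myocardium and endocardium was 0.45 (SE 0.31, adjusted p = 0.730). For the canonical rat sequence the same difference was 0.33 (SE 0.32, adjusted p = 0.775).

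miR-1 was not called between hearts either. Its mean level over layers was 3624 RPM in heart 6, 4151 in heart 7 and 4694 in heart 8. limma's F test with layer as a covariate gave an adjusted p of 0.883. It called 0% of 388 miRNAs between hearts, with 38 (9.79%) at an unadjusted p under 0.05, whereas edgeR called 10, miR-1 not among them.

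The base at nt 17 split the miR-1 reads into a larger A17 form and a smaller G17 form in every library. Of 31386 reads covering nt 17, 24058 carried A, 7314 carried G, 14 carried C and 0 carried T. The A17 share in epicardium was 76.6%, 74.0% and 78.2% in hearts 6, 7 and 8. In mid-myocardium it was 80.2%, 76.2% and 76.8%, and in endocardium 76.4%, 76.4% and 77.5%. Its mean over the 9 libraries was 76.9% ± 1.68. The library with the highest share, mid-myocardium of heart 6, was also the shallowest, with 1234 covering reads and a 95% Wilson interval of 77.9% to 82.4%. The lowest, epicardium of heart 7, had an interval of 72.5% to 75.4%. Such intervals cover counting error only, since reads amplified by PCR are not independent molecules.

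**Figure D2:**
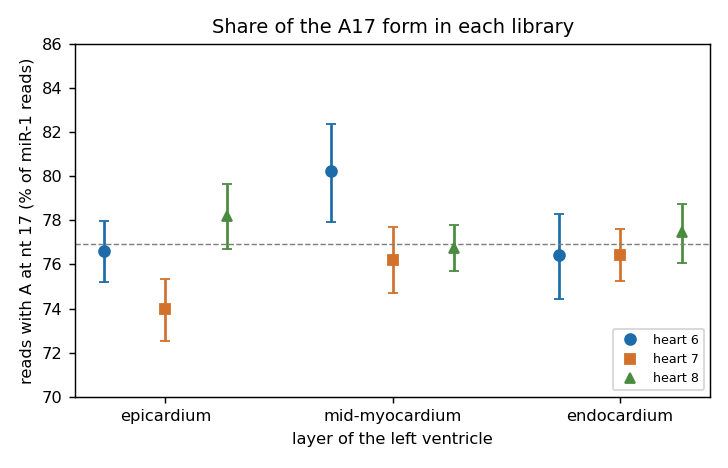
Share of miR-1 reads with A at nt 17, in percent (y axis, which does not start at 0), for the 9 libraries grouped by layer (x axis). Symbols mark hearts, bars are 95% Wilson intervals and the dashed line is the mean of 76.9%, and the libraries lie between 74.0% and 80.2%.

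Layers did not separate by this share. The means differed by 0.508 percentage points between endocardium and epicardium (exact two-sided permutation test, p = 0.9), 1.47 points between mid-myocardium and epicardium (exact p = 0.5) and 0.961 points between mid-myocardium and endocardium (exact p = 0.7). With 3 libraries against 3 the smallest p is 0.1. Leaving out epicardium of heart 7 turned the first difference to -0.64 points, and leaving out mid-myocardium of heart 6 turned the last to -0.29 points. In RPM, the A17 form ran from 2018 to 4461 and the G17 form from 623 to 1350, and the ratio of A17 to G17 reads from 2.85 to 4.06.

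Away from the 3′ end, no other base of miR-1 varied on that scale. At nts 1 to 20 other than nt 17, the mean share of reads that differed from the rat entry ran from 0.0317% at nt 9 to 0.177% at nt 20. At nt 22, the last base, T22C was carried by 6.02% ± 1.10 and T22A by 3.14% ± 0.508 of the covering reads. The substitution A11G, which is one of the differences that mark miR-206, was carried by 10 of 31410 reads.

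The 5′ end, which sets the seed, was nearly uniform. Under the rat entry, reads started at nt 1 in 98.3% ± 0.269 (SD, n = 9) of cases, at nt 2 in 0.472% ± 0.111 and at nt 3 in 0.904% ± 0.172. Over entries of all species, among reads of either form starting at nts 1 to 4 and matching from there to nt 17, nt 1 took 97.8% ± 0.445 and nt 3 took 1.47% ± 0.354. Reads starting at nt 3 were thus often filed elsewhere, with 192 under other entries and 273 under the rat one. The 3′ end was looser. It fell at nt 22 in 81.1% ± 2.15 of the reads, before nt 22 in 13.6% ± 2.13 and past it in 5.37% ± 0.516. Over the 9 libraries the share ending before nt 22 ranged from 11.7% to 18.1%, and the highest value was that of epicardium of heart 8.

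Across 11 such shares, counted under the rat entry, 33 layer comparisons were made. The smallest exact p of 0.1 was reached by 2 of them, and every Benjamini-Hochberg adjusted p was at least 0.825. The share starting at nt 3 was 1.03% ± 0.0271 in mid-myocardium and 0.846% ± 0.136 in epicardium. The share ending past nt 22 was 5.82% ± 0.380 in endocardium and 5.09% ± 0.442 in epicardium. In both comparisons the first layer was higher in 3 of 3 hearts. Over entries of all species the share starting at nt 3 was 1.79% ± 0.150 in mid-myocardium and 1.45% ± 0.423 in epicardium, higher in mid-myocardium in 2 of 3 hearts, with an exact two-sided permutation p of 0.4.

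Some ends made up a larger share of the G17 form than of the A17 form in every library. Reads starting at nt 3 made up 0.660% ± 0.137 of the A17 reads and 1.72% ± 0.493 of the G17 reads under the rat entry, with G17 higher in 9 of 9 libraries. Over entries of all species, which add 166 A17 and 26 G17 reads of that start, the shares were 1.29% ± 0.350 and 2.07% ± 0.573, again with G17 higher in 9 of 9. Reads ending at nt 20 made up 4.18% ± 1.00 of A17 and 5.98% ± 1.24 of G17, again with G17 higher in 9 of 9. Reads ending at nt 21 made up 8.28% ± 1.56 of A17 and 6.32% ± 1.79 of G17, with A17 higher in 7 of 9. Reads ending at nt 23 made up 4.56% ± 0.416 of A17 and 6.23% ± 1.15 of G17 under the rat entry, where A17 reads are missing. Over entries of all species, which add 169 A17 and 0 G17 reads of that length, the shares of reads with nts 1 to 20 were 4.99% ± 0.525 and 5.43% ± 1.06, with G17 higher in 6 of 9 libraries. Libraries of one heart share an animal, and a test over 3 hearts cannot give a p below 0.25, so these differences stand as counts of libraries.

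**Figure D3:**
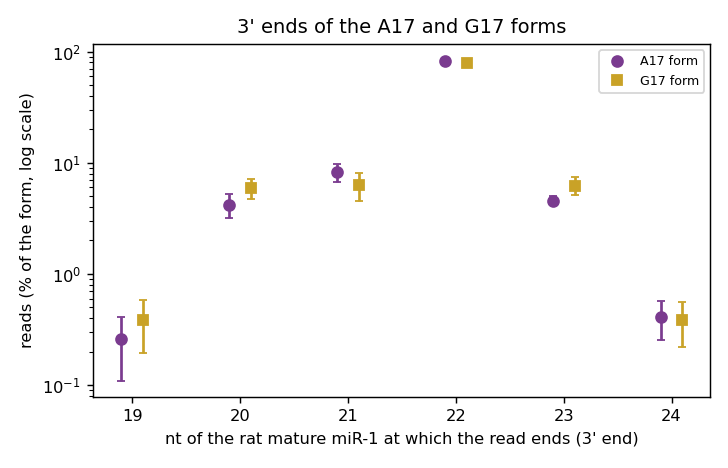
Share of the reads of each form, in percent on a log axis (y), by the nt of the rat mature sequence at which the read ends (x, nts 19 to 24). Points are means of 9 libraries with SD bars, both forms peak at nt 22, and G17 lies above A17 at nt 20. Reads are those under the rat entry, which lacks 169 A17 reads of nt 23, so the gap at nt 23 narrows to 4.99% against 5.43% over all entries.

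Bases after nt 20 showed what the ends were made of. They were read over entries of all species, since some A17 reads were filed under entries of other animals. Ending in AT, as the mature entries do, was the commonest outcome for both forms, with 75.4% ± 2.60 of A17 and 72.5% ± 1.89 of G17 reads that carried nts 1 to 20. A C in place of the last T ended 4.10% ± 0.798 of the A17 and 5.85% ± 1.18 of the G17 reads, with G17 higher in 8 of 9 libraries. An A there ended 2.47% ± 0.476 and 3.42% ± 0.484, with G17 higher in 8 of 9. An added T, which both hairpins carry at that place, ended 3.56% ± 0.447 of A17 and 2.68% ± 0.836 of G17 reads, with A17 higher in 7 of 9. An added A, carried by neither hairpin, ended 0.510% ± 0.114 and 1.20% ± 0.191, with G17 higher in 9 of 9. Over the 3 hearts, swapping the forms gave p = 0.25 for each of these endings by an exact permutation test, the smallest p possible.

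Ends with C in place of the last base were more frequent for miR-1 than for most miRNAs, given here as a description. The comparison took in 37 rat miRNAs with at least 1000 RPM of reads up to the base before, for which neither the entry nor a listed hairpin has C there. For some of them, such as miR-126 and miR-30d, no listed hairpin held the entry, so the hairpin base was not checked. Entries alike up to their last base, such as those of miR-133a and miR-133b, were counted as 1. Reads ending in a single C made up 4.87% for miR-1, the highest of the 37, against a median of 0.0437% and 3.50% for miR-101a. With endings in CC added, miR-101a stood at 34.7% and miR-1 second at 5.51%.

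The precursors tell the forms apart by more than nt 17, because their 5p arms and loops differ. They are shown to place the reads that fell outside the 3p arm, as RefSeq hairpins on GRCr8, with capitals for listed mature arms.
Mir1, chr18:2160327-2160413: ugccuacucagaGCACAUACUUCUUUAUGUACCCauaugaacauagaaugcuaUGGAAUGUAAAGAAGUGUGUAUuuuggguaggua
Mir1b, chr3:187864685-187864769: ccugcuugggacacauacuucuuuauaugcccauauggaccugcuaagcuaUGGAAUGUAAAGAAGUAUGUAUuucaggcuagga
Of the reads found whole in one hairpin and not the other on the 3p arm, 22062 matched Mir1b and 6228 matched Mir1, a Mir1b share of 78.0%. On the 5p arm 49 reads matched Mir1b and 0 matched Mir1. Of the 49, 3 ran from nt 13 to nt 45 of the hairpin, past the arm and into the loop. The Mir1b share of those 5p reads was 100%, with a 95% exact binomial interval of 92.7% to 100%. That interval pools the 9 libraries and covers counting error only, since amplified reads are not independent molecules. The 5p reads were few beside the 24058 reads of the A17 form. The commonest was acatacttctttatatgcccat with 20 reads, followed by the same sequence with a further a at its 3′ end with 19. These formed the family's 39 reads of the opposite arm, between 1 and 9 per library, in all 9 libraries. At a mean of 5.05 RPM they were too few for the test. From the loops, 13 reads matched Mir1 and 9 matched Mir1b.

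miR-206 was not detected as a sequence of its own at this depth. A single read was filed under it, in endocardium of heart 6, and it is shown because it is the whole of that member.
mir-206 read: tggaatgtaaagaagtatgtg
The read differed from rno-miR-206-3p by G11A and G17A, from rno-miR-1-3p by G17A and A21G, and from rno-miR-1b by A21G alone. The table gave it both names, mir-206 and mir-1. 1 sequence with 4 reads, filed under mir-1, starts with the first 18 nts of miR-206, but it ends as miR-1 does and differs from rno-miR-1-3p by A11G alone. No annotated sequence was closer to miR-206 than to miR-1 or miR-1b, and 0 sequences of at least 15 nts lay whole in the Mir206 hairpin. For sequences closer to miR-206, a count of 0 allows up to 3 reads, which is 0.393 RPM over the 9 libraries and between 2.10 and 10.6 RPM in single libraries. That bound is 0.00950% of the miR-1 reads. A lower level of miR-206 was not detectable at this depth.

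Of the 7 muscle miRNAs listed under rat entries, miR-1 was second to miR-133a in mean level. It ranked 29 of 437 rat miRNAs by mean RPM, and between 21 and 37 in single libraries, with miR-26b (4777 RPM) just above it and miR-16 (4069 RPM) just below. The neighbours let-7i, miR-26b and miR-16 had library ranges that overlapped that of miR-1, 2664 to 5851 RPM. miR-133a, made from the same transcripts as miR-1 and known to restrain cardiac growth, averaged 89555 RPM. As sequenced, that was 21.5 times the level of miR-1, and between 14.5 and 32.3 times in single libraries. miR-133b, the neighbour of miR-206, averaged 35.5 RPM, between 16.8 and 59.9, with reads in all 9 libraries. Its entry matches that of miR-133a up to the last base, so reads without that base cannot be told apart. The level of miR-133b is therefore the level as filed.

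The miRNAs encoded within myosin genes lay below miR-1 on average. miR-208b, from the slow myosin gene, averaged 2262 RPM, from 1587 to 3601. miR-499 averaged 991 RPM, from 539 to 1535, and miR-208, from the fast cardiac myosin gene, 466 RPM, from 243 to 968. miR-208b exceeded miR-1 in 1 library, endocardium of heart 6, at 3601 against 2664 RPM. miR-486, another muscle-enriched miRNA, had 0 reads under rat entries but 142385 RPM ± 38442 over entries of all species. RPM compare levels as ligated and sequenced, and capture of single miRNAs into a library can differ.

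**Figure D4:**
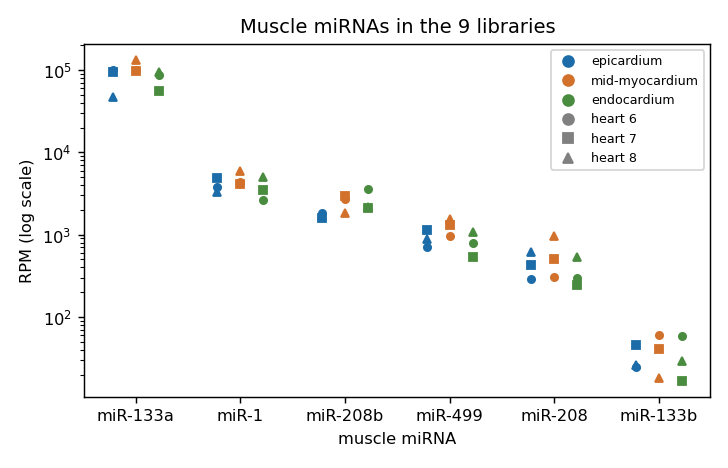
Levels of 6 muscle miRNAs in RPM on a log axis (y), by miRNA (x), with colours for layers and symbols for hearts. miR-133a lies 21.5 times above miR-1 on average and miR-133b, as filed, is lowest, and the layers overlap for miR-1.

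Of the 6 tested muscle miRNAs under rat entries, limma called 0 in each layer comparison, and 0 at an unadjusted p under 0.05. All 6 had a positive difference of mid-myocardium against epicardium, with a median log2 difference of 0.40 against 0.0046 over all miRNAs tested. Against endocardium 5 of the 6 were positive, with a median of 0.45 against 0.03. Between endocardium and epicardium the median was -0.06 against -0.0039. miR-486, tested under a cattle entry and outside these 6, went the other way in mid-myocardium. Its log2 difference was -0.18 against epicardium and -0.56 against endocardium, and it was 0.37 for endocardium against epicardium. The smallest unadjusted p over the 3 comparisons, 0.0924, was that of miR-499 for mid-myocardium against endocardium. Between hearts, miR-208 had an unadjusted p of 0.0125 by limma (adjusted p = 0.279) and an adjusted p of 0.0363 by edgeR. It was 1 of 10 called by edgeR among 388 miRNAs. The same adjusted p was held by miR-100, miR-125a, miR-99b, miR-1271 (a horse entry) and the red cell marker miR-144. Benjamini-Hochberg adjustment can give several miRNAs 1 value, so this tie says nothing of a link between them. The part of red cells in the miR-208 result was not tested.

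Markers of other cells were present in all 3 layers. The list was miR-126 for endothelium, miR-143 and miR-145 for smooth muscle, miR-199a and miR-214 for fibroblasts, miR-451 and miR-144 for red cells, and miR-142, miR-223 and miR-150 for leukocytes. limma called 0 of these 10 in each comparison, and 0 at an unadjusted p under 0.05. Of the 10, 8 had a positive difference of mid-myocardium against epicardium (median log2 difference 0.18), among them both fibroblast markers (median 0.35) and both red cell markers (median 0.50). Against endocardium 7 of the 10 were positive (median 0.12), and for endocardium against epicardium 6 (median 0.11). By direction, most of these markers thus leaned the same way in mid-myocardium as the 6 tested muscle miRNAs under rat entries. The exceptions against epicardium were miR-143 (-0.19) and miR-142 (-0.29). Those against endocardium were miR-143 (-0.18), miR-145 (-0.49) and miR-150 (-0.11). The sum of the 10 markers was instead lowest in mid-myocardium, with a mean of 122031 RPM against 136292 in epicardium and 135309 in endocardium. Single libraries ran from 121139 to 166091 RPM in epicardium, from 109066 to 144299 in mid-myocardium and from 114940 to 157860 in endocardium. The 7 muscle miRNAs under rat entries, mostly miR-133a, had their highest sum there, 118443 RPM in mid-myocardium against 87776 in epicardium and 86184 in endocardium. By library this sum ran from 53981 to 106902 RPM in epicardium, from 105585 to 142202 in mid-myocardium and from 61556 to 103423 in endocardium. These sums were not tested. miR-143 alone averaged 111113 RPM. The part of these cells in the levels of miR-1 and the other muscle miRNAs was not tested.

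Over the 9 libraries, the miRNAs of at least 100 RPM whose log2 level was most like that of miR-1 were miR-151 (Pearson r = 0.82), miR-499 (r = 0.70) and miR-214 (r = 0.69), of 101 compared. miR-133a had r = 0.63 and miR-208b r = -0.45. The libraries share 3 animals and each library a total, so these are descriptions.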

How the data were processed

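Small RNA libraries (TruSeq) of 3 layers of 3 rat hearts were trimmed and aligned by the authors to miRBase v18 in CLC Genomics Workbench v4.0, allowing up to 2 mismatches and 3 nts added or removed at an end. The authors deposited each annotated sequence as RPM on the annotated reads of its library, and each unannotated sequence as a raw count of reads, with at least 10 reads in all. A grouped table of the same reads was not used. Whole reads were recovered from the deposited RPM, and 100% of values were whole within 0.001 read. Annotated depth per library ran from 283991 to 1428025 reads.

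Rows were summed by species and name stem, with * rows apart. Reads were aligned without gaps to the rat mature entry (5′ shift of at most 3 nts, at most 3 mismatches, overlap of at least 15 nts). Layers were compared over 6 libraries by limma 3.58.1 (R 4.3.3) on log2(RPM + 1) for features with at least 10 reads in 1 library, at an adjusted p of 0.05, and hearts by its F test over 9. Shares were tested by exact two-sided permutation (scipy 1.17.1). Alternatives were edgeR 4.0.16, DESeq2 1.42.0, Baggerley's test (the test the study names), other scalings, pseudocounts and filters, a heart block, and leaving out each library. On simulated data for endocardium against epicardium (362 features), 100 miRNAs above a set mean level were changed 2-fold and a further 100 were changed 4-fold together. limma called 36 of the former and 96 of the latter. With so many changed at once the adjustment is looser than where few change, so these counts can overstate the power in the real comparisons.

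Heart numbers in the labels pair the libraries, since each heart gave all 3 layers. Deviations of same-numbered libraries had mean correlations of 0.110, 0.139 and 0.182 in the 3 layer comparisons, single pairs ranging from -0.145 to 0.417. Libraries of different numbers had means of -0.052, -0.068 and -0.086. These values are small, so the pairing rests on the labels.

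The named miRNAs were the family, a muscle list, neighbours of miR-1 in level and the 3 most like it. The printed sequences were the mature entries and hairpins, those with at least 1% of miR-1 reads, the miR-206 read and the commonest * sequence. Members and lists were chosen with earlier results of these data known.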

Additional observations from a re-analysis of the deposited data

Results flagged for a closer look

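Reads of miR-1 were also found outside the rat entry. Counting annotated sequences with nts 2 to 17 of either form, 49 sequences with 259 reads were filed under entries of other species or names, 256 of them with A at nt 17. Reads starting at nt 3 or 4 are outside this count and add 211 reads, 185 with A at nt 17. The 259 reads were 0.777% ± 0.365 (SD, n = 9) of all reads with nts 2 to 17 and occurred in 9 of 9 libraries. There are no control samples, so a background level for such reads was not measured. Of the A17 reads with CC in place of the last T, all 129 were filed under other species, while all 55 of the G17 form were under the rat entry. Against the G17 rat entry the former carry one more difference. No unannotated sequence held nts 2 to 16.

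From the Mir1b 5p arm, 9 reads were filed under entries other than rat mir-1, in 4 libraries, beside the 40 under it. Of the 9, 3 ran on into the loop.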

How the results depend on the processing

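No setting brought miR-1 past the threshold in a layer comparison. Over 10 other settings its log2 difference ran from -0.14 to -0.06 for endocardium against epicardium, from 0.24 to 0.28 for mid-myocardium against epicardium and from 0.30 to 0.40 for mid-myocardium against endocardium, with adjusted p from 0.682 to 1.00. Leaving out 1 library, the ranges were -0.36 to 0.086, 0.11 to 0.41 and 0.18 to 0.63, and the first difference turned to 0.017 without epicardium of heart 7 and to 0.086 without endocardium of heart 6. The replicate block left these differences at -0.13, 0.27 and 0.40 and changed no call, and its counts of miRNAs and of unique sequences called were 0 in each comparison. miR-206 had too few reads for any filtered fit and has no value. Of the counts, mid-myocardium against epicardium went from 0 to 1 with DESeq2 (miR-10b), and hearts from 0 to 2 without a filter (both mir-1271 entries) and to 10 with edgeR. The cause was not tested. Without a filter, the median of all miRNAs for endocardium against epicardium moved from -0.0039 to -0.12. Leaving out single libraries gave 0 miRNAs and 0 unique sequences called in each layer comparison, and was not run between hearts. Baggerley's test, as rebuilt for these fits, called 0 in each comparison, but recovered 1 of 100 simulated 4-fold changes for endocardium against epicardium. Its weighting may differ from that of the software the study used, so these counts do not bear on the study's own calls. The A17 mean over libraries ran from 77.0% to 78.0% with reads chosen otherwise and from 76.5% to 77.3% without single libraries. Its layer differences, leaving out 1 library, ran from -0.640 to 1.48, from 0.223 to 2.44 and from -0.285 to 1.72 points, in the order above. Swapping layers within hearts, the paired form of that test, gave p of 1.0, 0.5 and 1.0 by an exact permutation test. Depth limits the detection of miR-206 and the test of the opposite arm, and 3 hearts limit the layer comparisons.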
